A study of Mus musculus with 24 samples.

Results

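A set of 10 genes of the cells that wrap blood vessels were followed across the series. Of these, 6 were grouped as pericyte genes (Pdgfrb, Rgs5, Kcnj8, Abcc9, Vtn and Notch3) and 4 as smooth muscle genes (Acta2, Tagln, Myh11 and Cnn1). They were taken by gene symbol, and all 10 were present among the 53465 listed genes and among the 15493 that passed the filter on low reads (5 or more normalised reads in at least 6 control or 6 mutant libraries). RNA had been sequenced from CD31-sorted brain endothelial cells of single C57BL/6J mice, 12 of them Bmal1fl/fl controls and 12 Bmal1fl/fl; Tie2cre mutants. Brains of 2 mice per genotype had been taken at ZT2 and every 4 h until ZT22, where ZT counts hours from lights on. All mice carried floxed Bmal1, a core clock gene, and only the mutants carried Cre from the Tie2 promoter, which is active in endothelial and blood lineage cells and is not used to target mural cells. Replicates were separate mice, and male and female mice were used in the study without the labels giving the sex of each.

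Pericytes sit on the capillary wall and smooth muscle cells ring the arterioles and line the veins, and together they are called mural cells. Endothelial cells recruit pericytes with PDGF-B, which is read by the receptor that Pdgfrb encodes, and signal to smooth muscle through the Notch3 receptor. Notch3, grouped here with the pericyte genes, is thus not confined to pericytes. Mural cells lack CD31, the surface protein used for the sort, so they are not the cells the sort was set to collect. In bulk RNA, fewer cells of a type and less RNA per cell cannot be told apart.

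The promoter sequences of Acta2 and Cnn1, the smooth muscle genes with a promoter in the table used, are shown. Smooth muscle genes are known to be switched on through the CArG box, the site of serum response factor. Promoters of 250 bases before to 50 bases after the start site, from RefSeq on GRCm38.p6, matched 7 of the 10 genes, and those of Tagln, Myh11 and Pdgfrb were not analysed here. They were searched on both strands for the CArG box and for a looser form with at most 1 G or C among its 6 core bases. The Acta2 promoter (minus strand) held 2 of the looser words, which do not overlap and stand in capitals. CCCTATATGG started 84 bases and CCTTGTTTGG 34 bases before the start site of that window. The 2 annotations differ in this start. In the GENCODE span given below, which begins at 34255590 on the minus strand, both words lie inside the gene, so these distances are uncertain. The strict CArG box was in 0 of the 7 promoters, against 1.63% of 32817 promoters of the same length, and the looser form was in no promoter of the 7 other than that of Acta2, against 9.986% of all. The Cnn1 promoter (plus strand) held neither form in this window. A match is a description of letters and not a site.

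Acta2 promoter, chr19:34255324-34255623: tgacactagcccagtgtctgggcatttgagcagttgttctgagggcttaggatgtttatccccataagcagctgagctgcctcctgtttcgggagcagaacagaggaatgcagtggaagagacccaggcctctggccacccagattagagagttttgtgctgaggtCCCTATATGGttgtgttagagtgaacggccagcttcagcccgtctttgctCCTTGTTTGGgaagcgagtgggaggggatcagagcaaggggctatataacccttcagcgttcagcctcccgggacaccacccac
Cnn1 promoter, chr9:22099003-22099302: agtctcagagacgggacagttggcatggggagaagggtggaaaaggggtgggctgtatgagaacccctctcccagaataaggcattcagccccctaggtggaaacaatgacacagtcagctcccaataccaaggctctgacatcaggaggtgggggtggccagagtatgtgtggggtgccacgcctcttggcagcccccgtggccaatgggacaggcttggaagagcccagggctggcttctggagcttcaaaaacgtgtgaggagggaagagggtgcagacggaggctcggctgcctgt

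Total reads per library lay between 6136404 and 6648311 after the normalisation by the authors, and the original depth is no longer in them. The 8 libraries of ZT6 and ZT18 were compared with the other 16. The library numbers of the 8 follow each other, but they run on without a break into 13 of the other 16, and only 3 lie outside that run, so the numbers alone do not set the 8 apart. The i5 index, the latter part of the library barcode in the labels, does in part. All 8 carried index A, as did 4 of the other 16 (control mice of ZT10 and ZT2), while 12 carried index B. Whether the 8 differ by time of day or by handling cannot be told apart. The share of mitochondrial reads was 2.68% to 3.90% in the 8 libraries and 5.78% to 17.4% in the other 16. Arntl, the listed name of Bmal1, had 1 to 468 reads in controls (median 166.5, n = 12) and 81 to 354 in mutants (median 242.5, n = 12), and the mutant minus control difference was 0.96 on the log2 scale (SE 0.43, adjusted p = 0.639). The reads cover the whole gene and not only the floxed exon, so that this level does not check the genotype labels. The sorted material carried the endothelial markers, since the 10 endothelial genes (Pecam1, Cldn5, Cdh5 and others) held 76332 to 122134 reads per library in sum.

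Rgs5, a regulator of G protein signalling and the most abundant of the pericyte genes (ENSMUSG00000026678, chr1:169655501-169695813 on GRCm38), had the highest level per exon length of the 10. Its level was 280 ± 67.2 CPM per kb (counts scaled to library size and divided by exon length, SD, n = 24 libraries). Vtn, which encodes the matrix protein vitronectin (ENSMUSG00000017344, chr11:78499091-78502324), followed with 179 ± 37.6. Pdgfrb (ENSMUSG00000024620) had 33.9 ± 8.95, and Abcc9 (ENSMUSG00000030249, chr6:142587862-142702315), the sulfonylurea receptor subunit of the vascular KATP channel, had 26.7 ± 7.98. Notch3 (ENSMUSG00000038146, chr17:32120820-32166852) had 19.9 ± 5.599 and Kcnj8 (ENSMUSG00000030247, chr6:142564837-142571614), the pore subunit of the same KATP channel and a neighbour of Abcc9 on the chromosome, had 16.9 ± 4.83. Of the smooth muscle genes, Myh11, the smooth muscle myosin heavy chain (ENSMUSG00000018830, chr16:14194535-14291372), had 46.2 ± 28.8 CPM per kb. Acta2, smooth muscle alpha actin (ENSMUSG00000035783, chr19:34241090-34255590), had 42.1 ± 31.4. Tagln, the actin-binding protein transgelin (ENSMUSG00000032085, chr9:45929619-45936058), had 19.3 ± 15.4. Cnn1, calponin (ENSMUSG00000001349, chr9:22099216-22109630), had 0.804 ± 1.13 and was near the limit of detection.

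The order of levels was firm at the top, and below it firm for some neighbours and loose for others. In the 16 libraries outside ZT6 and ZT18, Rgs5 was above Vtn in 15 of 16 and Vtn was above Myh11 in 16 of 16. Myh11 was above Pdgfrb in 6 of 16 and Acta2 above Abcc9 in 6 of 16, so that these neighbours did not differ beyond their spread. Abcc9 was above Notch3 in 15 of 16 and Tagln above Cnn1 in 15 of 16. In the 8 libraries of ZT6 and ZT18, Myh11 and Acta2 took the places after Vtn, with Myh11 above Acta2 in 3 of 8 and Acta2 above Pdgfrb in 7 of 8. Tagln was above Abcc9 in 5 of 8 there. Summed per length, the 6 pericyte genes reached 10.7% to 31.4% of the sum of the 10 endothelial genes (median 18.9%, n = 24). The 4 smooth muscle genes reached 0.607% to 7.69% of it (median 3.30%, n = 24).

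Both groups of genes were higher in the ZT6 and ZT18 libraries than in the other 16, and the smooth muscle genes by far more than the pericyte genes. In the test across all genes, 9 of the 10 were called higher and 0 lower, where 5.85% of all genes tested were called higher and 10.9% lower. The 5 called pericyte genes rose by 0.35 to 0.52 on the log2 scale and the 4 smooth muscle genes by 1.34 to 2.83. The median over all genes tested was -0.01. The i5 index runs with this comparison, and 2 fits added after the data were seen took it into account. Among the 12 libraries of index A, 8 against 4, the 4 smooth muscle genes were called higher and 0 of 6 pericyte genes. Over all genes, that fit called 174 of 15493 higher and 570 lower. With genotype as a factor it rests on 4 against 4 control libraries, since 0 mutant libraries outside ZT6 and ZT18 carried index A. Acta2 then had 1.70 (adjusted p = 0.00105), Tagln 1.61 (adjusted p = 0.0124), Myh11 1.23 (adjusted p = 0.0166) and Cnn1 5.31 (adjusted p = 0.00851), and the pericyte genes ran from 0.05 (Kcnj8) to 0.41 (Rgs5, adjusted p = 0.234). With the index as a covariate over all 24 libraries only Acta2 of the 10 was called, at 1.62 (adjusted p = 0.0365). This second fit called 191 of 15493 genes higher and 812 lower. Tagln had 1.51, Myh11 1.21 and Cnn1 5.13 (adjusted p of 0.142, 0.0733 and 0.0504), and the pericyte genes 0.14 (Notch3) to 0.50 (Rgs5, adjusted p = 0.0683). The values that follow are without the index unless stated, and the part of the index in them cannot be told apart from that of the time points.

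Rgs5 ran from 7809 to 12229 reads in the 8 libraries of ZT6 and ZT18 (median 9627.5) and from 5109 to 9154 in the other 16 (median 7049). The pairs of control mice had 5641 with 5277 at ZT2, 7809 with 9715 at ZT6, 9154 with 8706 at ZT10, 6943 with 6884 at ZT14, 11190 with 9199 at ZT18, 8591 with 6887 at ZT22 reads. The pairs of mutant mice had 5466 with 7274 at ZT2, 12229 with 8851 at ZT6, 8114 with 7880 at ZT10, 7155 with 5109 at ZT14, 9540 with 10373 at ZT18, 7609 with 6304 at ZT22 reads. The 2 sets of libraries overlapped, and after scaling to library size 5 of the 8 libraries stood above the highest of the 16. The log2 difference was 0.49 (SE 0.10, adjusted p = 0.000755).

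Pdgfrb, the receptor for PDGF-B, had 823 to 1729 reads (median 1475) in the 8 libraries and 676 to 1500 (median 1044.5) in the other 16. Its difference was 0.45 (SE 0.13, adjusted p = 0.0132). Abcc9 had 1262 to 2558 reads (median 1706.5) against 842 to 2036 (median 1158.5), with a difference of 0.52 (SE 0.13, adjusted p = 0.00328). Its channel partner Kcnj8 was the only one of the 10 not called. Kcnj8 had 154 to 416 reads (median 320.5) against 167 to 358 (median 252.5). Its difference was 0.41 (SE 0.15, 95% interval 0.10 to 0.72), with an adjusted p of 0.0654. That p was 0.00929 without control ZT6 replicate 1 and 0.0323 without mutant ZT10 replicate 1. Kcnj8 was also called with no TMM scaling, at 0.44 (adjusted p = 0.041). By a contrast of group means it was called at 0.40 (adjusted p = 0.0376). Vtn had 1760 to 3099 reads (median 2718) against 1579 to 2708 (median 1985.5), with a difference of 0.35 (SE 0.11, adjusted p = 0.0199). The receptor gene Notch3 had 777 to 1581 reads (median 1199.5) against 407 to 1309 (median 945), with a difference of 0.42 (SE 0.15, adjusted p = 0.0407). In each of the pericyte genes the 2 sets overlapped. The calls of Notch3 and Vtn were the least firm. Adjusted p for Notch3 lay between 0.0537 and 0.0998 when any of 10 libraries was left out (control ZT6 replicate 2, ZT18 replicates 1 and 2 and ZT22 replicate 2, and mutant ZT6 replicates 1 and 2 and ZT10, ZT14, ZT18 and ZT22 replicate 2). For Vtn it was 0.0516 without control ZT18 replicate 2 and 0.0588 without mutant ZT18 replicate 2.

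Acta2 had 638 to 1449 reads (median 1145.5) in the ZT6 and ZT18 libraries and 49 to 721 (median 291) in the other 16. The pairs of control mice had 262 with 480 at ZT2, 648 with 1100 at ZT6, 169 with 534 at ZT10, 183 with 296 at ZT14, 1447 with 1449 at ZT18, 721 with 88 at ZT22 reads. The pairs of mutant mice had 229 with 286 at ZT2, 649 with 1191 at ZT6, 401 with 49 at ZT10, 410 with 149 at ZT14, 638 with 1378 at ZT18, 499 with 716 at ZT22 reads. Only the higher ZT22 libraries reached the range of the 8, and after scaling to library size 14 of the 16 lay below the lowest of the 8. The difference was 1.64 (SE 0.29, adjusted p = 6.68e-05), a 3.12-fold higher level.

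Tagln had 222 to 700 reads (median 428) in the 8 libraries and 0 to 310 (median 132) in the other 16, with the 0 in mutant ZT10 replicate 2. Its difference was 1.69 (SE 0.35, adjusted p = 0.000626). Myh11 had 2103 to 4935 reads (median 3813) against 582 to 3055 (median 1374.5), and its difference was 1.34 (SE 0.25, adjusted p = 0.000119). For both genes 6 of the 8 libraries stood above the highest of the 16 after scaling to library size. Cnn1 had 0 to 60 reads (median 33) in the 8 libraries and 0 to 25 (median 1) in the other 16, of which 7 had no read. Its control pairs held 3 with 1 at ZT2, 15 with 54 at ZT6, 0 with 0 at ZT10, 0 with 0 at ZT14, 60 with 46 at ZT18, 25 with 0 at ZT22 reads. Its mutant pairs held 9 with 1 at ZT2, 0 with 17 at ZT6, 0 with 0 at ZT10, 1 with 7 at ZT14, 20 with 49 at ZT18, 1 with 24 at ZT22 reads. The fitted difference of 2.83 (SE 0.84, 95% interval 1.11 to 4.55, adjusted p = 0.0165) is wide, and without mutant ZT18 replicate 2 it was 2.66 with an adjusted p of 0.0558. Without control ZT22 replicate 1 it was 3.95 with an adjusted p of 0.00203. Without the 3 libraries outside the number run, an alternative added after the data were seen, the same 9 genes were called, with 1.57 for Acta2, 1.23 for Myh11 and 0.44 for Rgs5. In 0 of the 10 genes did every ZT6 and ZT18 library exceed every other library, which 0.194% of all genes did.

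**Figure D1:**
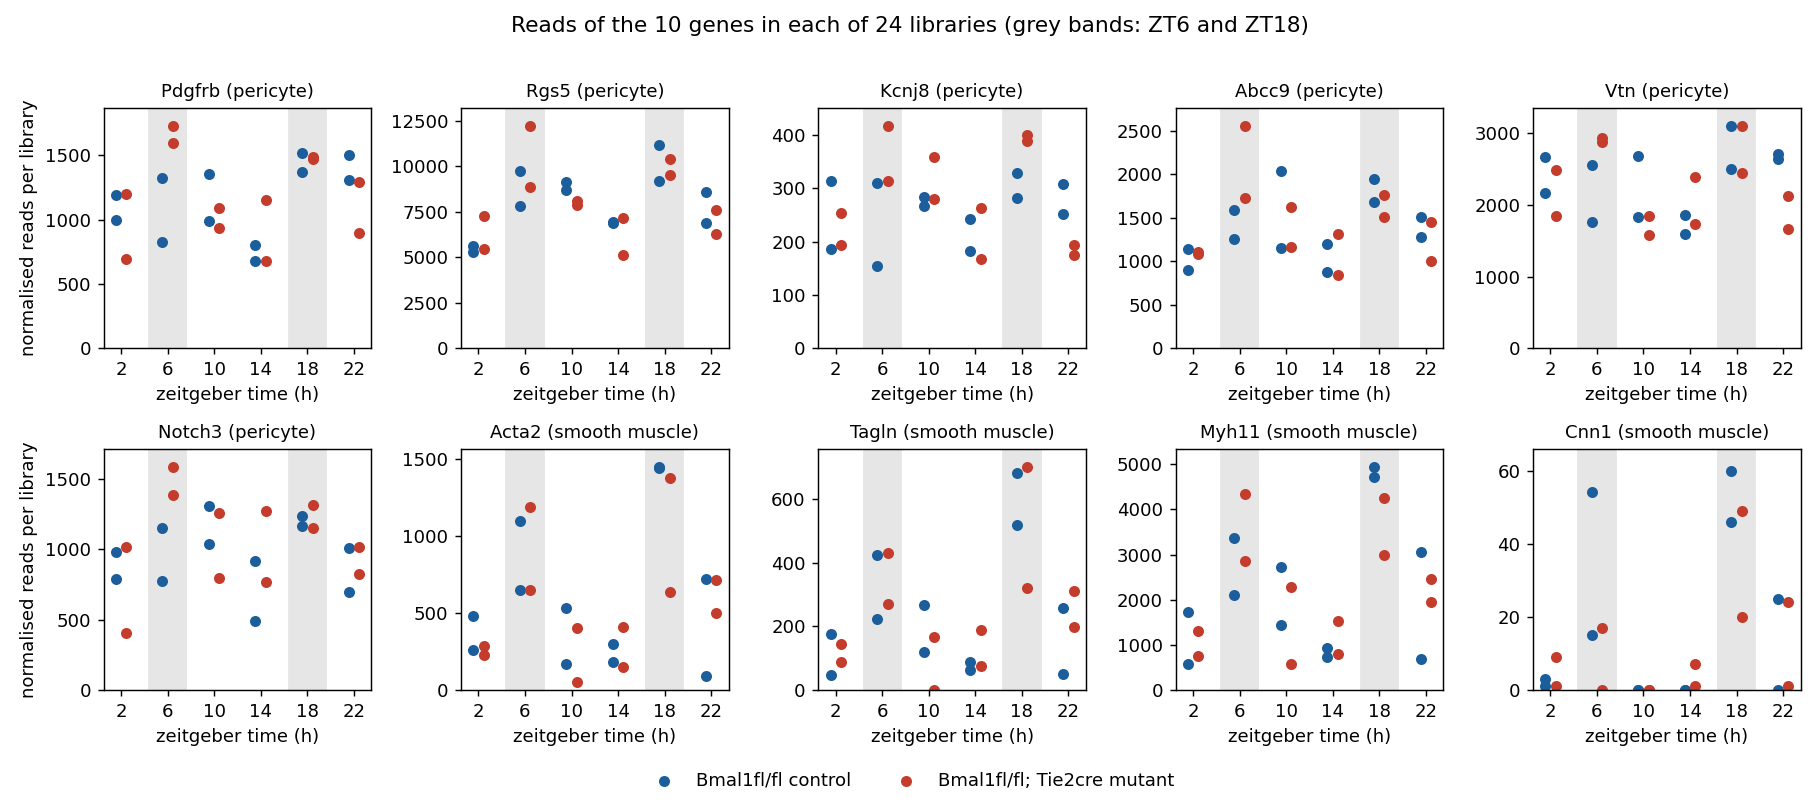
Normalised reads per library (y axis) of each gene against zeitgeber time in hours (x axis), with each point a mouse, blue for control and red for mutant, and grey bands over ZT6 and ZT18. Acta2 lies between 638 and 1449 reads inside the bands and between 49 and 721 outside them, while the ranges of the pericyte genes overlap more.

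Endothelial genes were also higher in the ZT6 and ZT18 libraries. Of the 10, 7 were called higher, with a median difference of 0.42 that lies within the range of the pericyte genes. When the libraries were scaled to the summed reads of these 10 endothelial genes, a scaling added after the data were seen, the median of all genes moved from -0.01 to -0.38, and the calls over all genes from 907 higher and 1688 lower to 64 and 4813. Relative to the endothelial genes, 0 of 6 pericyte genes and 4 of 4 smooth muscle genes were called higher by edgeR, where 0.413% of all genes were called higher. The pericyte differences then lay between -0.03 (Vtn, 95% interval -0.30 to 0.24) and 0.13 (Abcc9, -0.19 to 0.45), and 0 of 6 had an unadjusted p under 0.05 (n = 24). Acta2 kept a difference of 1.29 (SE 0.29, adjusted p = 0.000952), Tagln 1.32 (SE 0.36, adjusted p = 0.00525), Myh11 0.97 (SE 0.25, adjusted p = 0.00381) and Cnn1 2.41 (SE 0.86, adjusted p = 0.0317). Set as a share of the pericyte sum per length, the smooth muscle sum was 15.96% to 37.4% (median 30.3%) in the 8 libraries and 3.14% to 30.6% (median 10.8%) in the other 16.

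**Figure D2:**
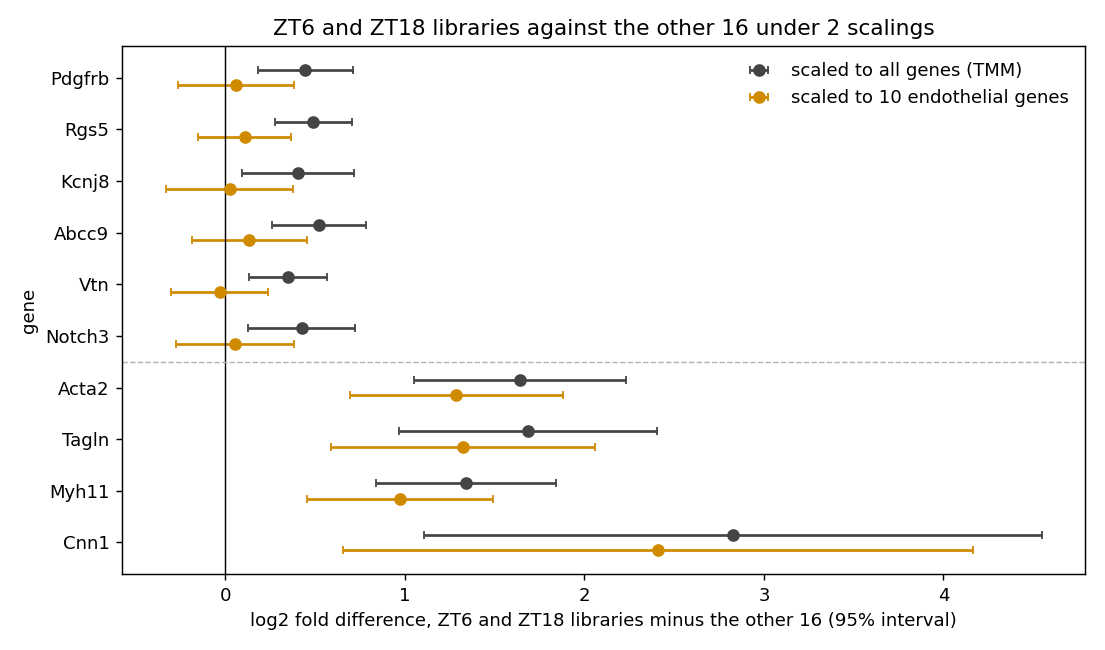
Log2 difference between the 8 ZT6 and ZT18 libraries and the other 16 with its 95% interval (x axis) for each gene (y axis), scaled to all genes in grey and to 10 endothelial genes in orange. Scaled to the endothelial genes, the pericyte genes lie between -0.03 and 0.13 and the smooth muscle genes between 0.97 and 2.41.

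**Figure D3:**
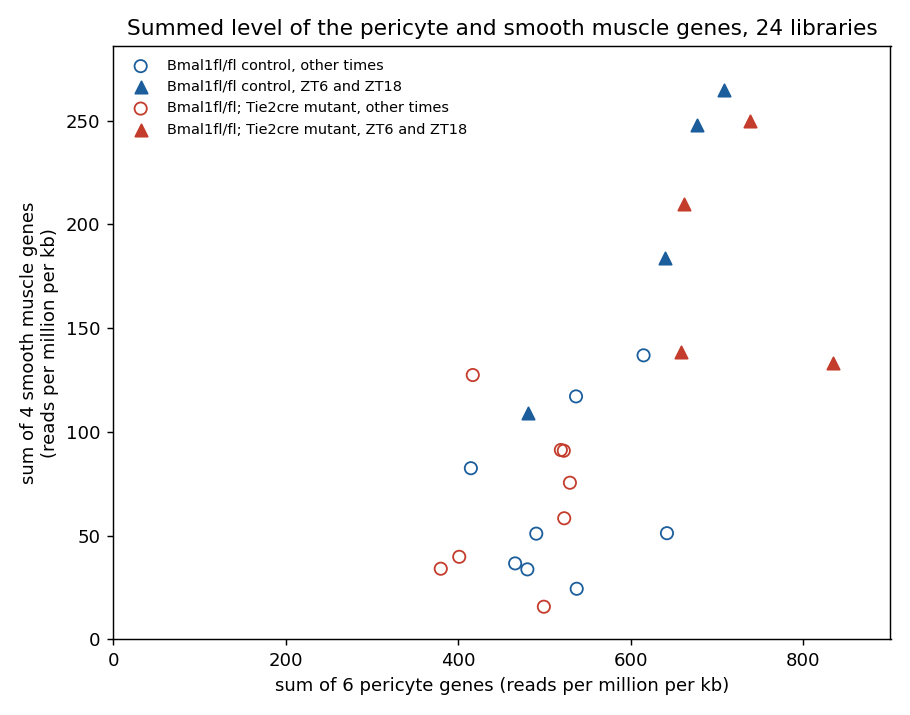
Sum of the 4 smooth muscle genes against the sum of the 6 pericyte genes, both in CPM per kb, in each of 24 libraries, with filled triangles for ZT6 and ZT18, open circles for the other times, blue for control and red for mutant. The smooth muscle sum runs from 109 to 265 at ZT6 and ZT18 and from 15.7 to 137 at the other times, and the pericyte sum from 481 to 834 and from 380 to 642.

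Markers of other brain cells moved the opposite way across the same libraries. The 8 microglial genes summed to 1043 to 1765 reads in the ZT6 and ZT18 libraries and to 9474 to 25777 in the other 16, and 8 of 8 were called lower. The 8 astrocyte genes summed to 4661 to 7715 against 10651 to 21156, with 7 of 8 lower, and the 6 oligodendrocyte genes to 2210 to 4458 against 5215 to 17961, with 6 of 6 lower. The 6 neuronal genes held 45 to 95 against 131 to 770 reads, with 6 of 6 lower, and the 5 red blood cell genes 1492 to 4895 against 2410 to 9014, with 5 of 5 lower. Early response genes that cell isolation is known to switch on summed to 47605 to 59405 against 16651 to 67601, with 4 of 7 higher. Fibroblast genes summed to 813 to 1246 against 727 to 1243, and 0 of 8 were called (Apod 0.05, Col3a1 0.51). A library at 0 was found for 2 fibroblast, 2 oligodendrocyte and 4 neuronal genes and for none of the microglial, astrocyte, red blood cell or early response genes. The part of these cells and of the isolation in the mural differences was not tested.

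Further genes were read from 2 lists for the same cell types. What share of their RNA came from those cells was not tested. Of 16 other pericyte genes, 6 were called higher and 0 lower, where 5.85% of all genes were called higher and 10.9% lower. The median difference of the 16 was 0.49. Des, the muscle intermediate filament desmin, rose by 1.14 (SE 0.21, adjusted p = 0.000136). Enpep, an aminopeptidase of the pericyte surface, rose by 0.58 (SE 0.15, adjusted p = 0.00392), and Cspg4, the NG2 proteoglycan, by 0.52 (SE 0.17, adjusted p = 0.0256). Higd1b, a mitochondrial membrane protein gene, rose by 0.60 and Tbx18, a mural transcription factor, by 0.84. Scaled to the endothelial genes, 1 of the 16 was called higher, where 0.413% of all genes were. It was Des, at 0.76 (SE 0.23, adjusted p = 0.00986).

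Of 19 other smooth muscle genes tested, 10 were called higher and 0 lower, where 5.85% of all genes were called higher and 10.9% lower. The median difference of the 19 was 0.69. Tpm1, a tropomyosin, rose by 0.68 (SE 0.09, adjusted p = 2.08e-07), and Tpm2 by 1.56 (SE 0.31, adjusted p = 0.000264). Myl9, the regulatory myosin light chain, rose by 0.90 (SE 0.16), and Crip1, a LIM domain protein gene, by 0.90 (SE 0.16). The actin-binding caldesmon gene Cald1 rose by 0.61 (SE 0.11) and Pcp4l1 by 0.48 (SE 0.07). Some of the list stood above the smooth muscle members. Pcp4l1 had a mean of 250 CPM per kb and Tpm1 57.4, against 46.2 for Myh11 and 195 for the endothelial gene Pecam1. Scaled to the endothelial genes, 6 of the 19 were called higher and 0 lower, with a median of 0.34. On that scale 64 of 15493 genes were called higher and 4813 lower. Cald1 (0.22) and Pcp4l1 (0.11) were not among the 6. Of 9 genes of the same families as the contractile genes, 4 were called higher on the first scale (Cnn2 by 0.64, Tagln2 by 0.46, Actg1 by 0.35 and Myh10 by 0.30) and 0 lower. On the endothelial scale 0 were higher and 2 lower, Actb (-0.30, adjusted p = 0.0114) and Tagln3 (-1.32, adjusted p = 0.00707). On the first scale Actb, beta actin, had a difference of 0.07 (adjusted p = 0.59) and Tagln3 -0.96 (adjusted p = 0.0718). The 6 neuronal genes had a median of -2.59 on that scale, and the cells of origin of Tagln3 were not tested.

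Among the known partners of these genes, calls lay in the Notch and vitronectin lists. Over all genes tested, 5.85% were called higher and 10.9% lower. Of the 5 PDGF genes 0 were called, and Pdgfb, the ligand of Pdgfrb, had a difference of 0.07 (SE 0.10, adjusted p = 0.736). Pdgfd, another ligand of that receptor, had 0.35 (SE 0.14, adjusted p = 0.094). Of 12 Notch genes 4 were higher and 1 lower. The Notch target genes Hes1 and Heyl rose by 1.02 (SE 0.17, adjusted p = 2.15e-05) and 0.66 (SE 0.18, adjusted p = 0.0101), and the ligand genes Dll4 and Jag1 by 0.44 and 0.28. Notch2 fell by 0.69 (SE 0.14, adjusted p = 0.000533). Of 6 vitronectin partners, Itga5 rose by 0.39, and the integrin genes Itgb5, Itgav and Itgb3 fell by 2.33, 0.64 and 0.86. Which cells these integrin transcripts came from was not tested. The 8 microglial genes had a median difference of -3.80 in the same comparison. Of the 4 regulators of contractile genes 0 were called, and Srf, serum response factor, had a difference of 0.38 (SE 0.14, adjusted p = 0.0561), while its cofactor gene Mkl2 had 0.22 (SE 0.09, adjusted p = 0.0809). Rgs4, a relative of Rgs5, had 0.35 (SE 0.13, adjusted p = 0.0716), and the pancreatic and neuronal KATP genes Kcnj11 and Abcc8 were too low to test.

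Loss of Bmal1 under Tie2cre was not accompanied by a detectable change of any of the 10 genes. By edgeR 0 of 10 were called and 0 had an unadjusted p under 0.05 (n = 24), where 0.271% of all genes were called, and DESeq2 called 0 of the 9 genes for which it gave an adjusted p, all but Cnn1. Differences lay between -0.14 for Acta2 and 0.13 for Notch3, and adjusted p was 0.916 or higher. For the pericyte genes the intervals were narrow. Rgs5 had 5277 to 11190 reads in controls (median 8200) and 5109 to 12229 in mutants (median 7744.5), and its difference of -0.01 had a 95% interval of -0.18 to 0.16. Pdgfrb had 676 to 1514 reads (median 1250.5) against 676 to 1729 (median 1176.5), and its difference of 0.03 had an interval of -0.20 to 0.26. Vtn had -0.07 (-0.27 to 0.14), Abcc9 0.04 (-0.19 to 0.26), Kcnj8 0.09 (-0.21 to 0.38) and Notch3 0.13 (-0.14 to 0.41). The smooth muscle genes allowed larger differences. The interval was -0.69 to 0.42 for Acta2, -0.65 to 0.74 for Tagln, -0.44 to 0.42 for Myh11 and -1.38 to 1.62 for Cnn1. For these 10 genes the 2 genotypes overlapped throughout.

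Lists of related genes held 3 genes that differed between genotypes. Lamc3, a laminin chain gene on the pericyte list, was higher in mutants by 0.52 (SE 0.11, adjusted p = 0.0164). Synpo2, an actin-bundling protein gene on the smooth muscle list, was lower, with a difference of -0.56 (SE 0.10, adjusted p = 0.00383). Gkn3, an arterial endothelial marker, was lower, with a difference of -2.28 (SE 0.40, adjusted p = 0.00447). These 3 values are without the i5 index, which ran in part with genotype. With the index as a covariate, 7 of all genes tested were called, against 42 without it. The other 15 pericyte genes and the other 18 smooth muscle genes tested were not called, and the medians of these lists were 0.12 and -0.09, against 0.00 over all genes.

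The genotype difference was also taken within the 8 and within the 16 libraries, without the i5 index. All 8 carried index A, while in the 16 it was carried by 4 control and 0 mutant libraries. By edgeR, in the 16 libraries 0 of 10 genes were called (0.0452% of all genes) and 0 had an unadjusted p under 0.05. In the 8 libraries 0 of 10 were called (0% of all genes) and 1 had an unadjusted p under 0.05, Kcnj8. In the 8, the pericyte differences were all above 0, from 0.14 for Rgs5 to 0.53 for Kcnj8 (SE 0.24, adjusted p = 0.962). In the 16 they ran from -0.22 for Vtn to 0.01 for Notch3. By the test of the difference between the 8 and the 16, 0 of 10 passed the adjusted threshold, and 3 of 10 had an unadjusted p under 0.05 (n = 24), as had 3.95% of all genes. These were Kcnj8 at 0.65 (SE 0.29), Pdgfrb at 0.51 (SE 0.25) and Vtn at 0.45 (SE 0.20). Over the 24 omissions of a single library, Kcnj8 ran from 0.46 to 0.77, Pdgfrb from 0.35 to 0.61 and Vtn from 0.32 to 0.57. Their unadjusted p was under 0.05 in 21, 11 and 17 of the 24 (n = 23 libraries each), and the adjusted p in 0. The lowest value of all 3 was without control ZT6 replicate 1, which was the lowest of the 8 libraries in 6 of 6 pericyte genes, with unadjusted p of 0.111, 0.164 and 0.124 (n = 23). Cnn1, at -1.55 (SE 1.72), ran from -3.98 without control ZT22 replicate 1 (unadjusted p = 0.0203, n = 23) to -0.61 without mutant ZT22 replicate 2.

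Read within each genotype, the difference between the 8 and the 16 libraries was largest for the smooth muscle genes among the 10 in both. In controls Acta2, Tagln and Myh11 were called higher, 3 of the 10 genes, where 2.12% of all genes were. Their differences were 1.75, 1.79 and 1.34. In mutants 8 of the 10 were called higher, where 2.14% of all genes were, and these 3 had 1.52, 1.58 and 1.34. The pericyte genes had 0.07 (Kcnj8) to 0.37 (Rgs5) in controls, with 0 of 6 called, and 0.57 (Vtn) to 0.72 (Kcnj8) in mutants, with 5 of 6 called. By the adjusted test of the difference, 0 of the 10 differed between genotypes in this. The interval of that difference was -1.48 to 1.01 for Acta2 and -0.19 to 0.68 for Rgs5. These values are without the i5 index, which was spread differently in the 2 genotypes. In mutants the 4 ZT6 and ZT18 libraries carried index A and the 8 others index B. Among the other control libraries 4 carried index A and 4 index B. The index and the time points cannot be told apart in mutants.

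**Figure D4:**
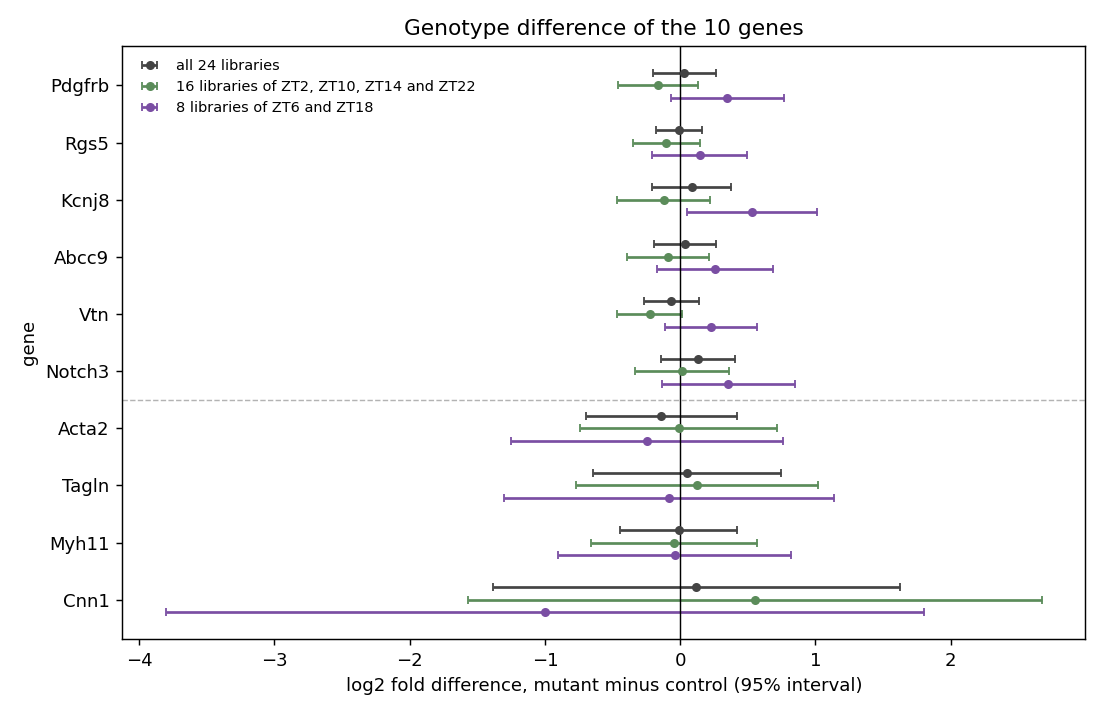
Log2 difference between mutant and control mice with its 95% interval (x axis) for each gene (y axis), over all 24 libraries in grey, the 16 libraries of ZT2, ZT10, ZT14 and ZT22 in green and the 8 of ZT6 and ZT18 in purple. Over all libraries the values lie between -0.14 and 0.13, and the intervals of Cnn1 are the widest.

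A 24 h rhythm was not detectable in any of the 10 genes. By meta2d, the rhythm test used for these data, 0 of 10 had an unadjusted p under 0.05 in controls (n = 12), where 2.43% of all genes did, and 0 of 10 in mutants (n = 12), where 2.27% did. In controls the lowest p was 0.949, for Vtn (n = 12), and in mutants it was 0.356, for Cnn1 (n = 12). ZT6 and ZT18 are opposite phases of a 24 h cycle, so a 24 h rhythm test does not register levels that are high at both. The difference in rhythm between genotypes, tested in edgeR, had an unadjusted p under 0.05 in 0 of 10 genes (n = 24), where 4.26% of all genes had. The lowest was 0.384 for Abcc9 (n = 24).

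The smooth muscle genes varied more between mice of a group than the pericyte genes. The biological coefficient of variation was 15.8% for Rgs5, 18.0% for Vtn, 19.6% for Abcc9, 20.02% for Pdgfrb, 23.3% for Notch3 and 24.3% for Kcnj8. It was 36.0% for Myh11, 45.8% for Acta2, 59.0% for Tagln and 114% for Cnn1, and the median over all genes was 34.6%. The widest pair of Acta2 were the control mice at ZT22, with 721 and 88 reads. The same mice had 3055 and 683 reads of Myh11, 257 and 49 of Tagln and 25 and 0 of Cnn1, but 1500 and 1309 of Pdgfrb and 8591 and 6887 of Rgs5. The mutant mice at ZT10 had 401 and 49 reads of Acta2, 167 and 0 of Tagln and 2275 and 585 of Myh11, but 8114 and 7880 of Rgs5. Notch3 had 1257 and 794 in that pair, and Cnn1 had no read in either mouse. In both pairs, picked here for their wide Acta2 or Tagln values, Acta2, Tagln and Myh11 were low in the same mouse.

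Acta2, Tagln and Myh11 varied together across libraries. Correlations were taken within the 8 and within the 16 libraries on log2(CPM + 1), 90 in all. The 2 genes of a pair share the library and its depth. Means of time points and genotypes were not removed, and permutations ran across them. The r and its p therefore include shared differences between time points and do not measure variation between mice alone. Within the smooth muscle group all 6 pairs were positive in the 8 libraries (median r 0.826) and in the 16 (median r 0.621). Acta2 and Tagln had r = 0.9 in the 16 libraries, with a permutation p of 1e-05 that is the smallest 100000 permutations can give (adjusted 0.00045). Spearman's rho was 0.906 (permutation p = 2e-05, adjusted 0.0009), and r was 0.845 without the 2 libraries farthest from the median. In the 8 libraries the same pair had r = 0.925 (exact permutation p = 0.000843, adjusted 0.0135), rho = 0.905 (exact p = 0.00456, adjusted 0.0411) and r = 0.915 without the 2 farthest. The pairs of Myh11 with Acta2 and with Tagln also passed in both sets, and 0 of the 3 pairs with Cnn1 did in either.

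Within the pericyte group all 15 pairs were positive in both sets, with medians of 0.782 in the 8 libraries and 0.476 in the 16. After adjustment 4 of 15 passed in the 16 libraries by Pearson's r. Pdgfrb and Vtn had r = 0.747 (permutation p = 0.00129, adjusted 0.0145), rho = 0.762 (permutation p = 0.00109, adjusted 0.0205) and r = 0.754 without the 2 farthest. Rgs5 and Abcc9 had r = 0.739 (permutation p = 0.0009, adjusted 0.0135), rho = 0.688 (permutation p = 0.004, adjusted 0.0411) and r = 0.605 without the 2 farthest. Of the time points in the 16, both had their lowest mean at ZT2 (202 and 19.7 CPM per kb) and their highest at ZT10 (295 and 28.3). In the 8 libraries 2 of 15 passed by Pearson's r, and 10 of 15 stayed positive without the 2 farthest, so that part of the relations rests on those libraries. The channel subunits Kcnj8 and Abcc9 had r = 0.476 in the 16 libraries (permutation p = 0.0609, adjusted 0.191), with rho = 0.462 (permutation p = 0.0734, adjusted 0.245) and r = 0.305 without the 2 farthest. Of the 24 pairs of a pericyte and a smooth muscle gene, 0 passed in either set. Their median r was 0.292 in the 8 libraries and 0.0396 in the 16, with 19 and 13 of 24 above 0. Without the 2 farthest libraries 11 and 14 of 24 were above 0.

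**Figure D5:**
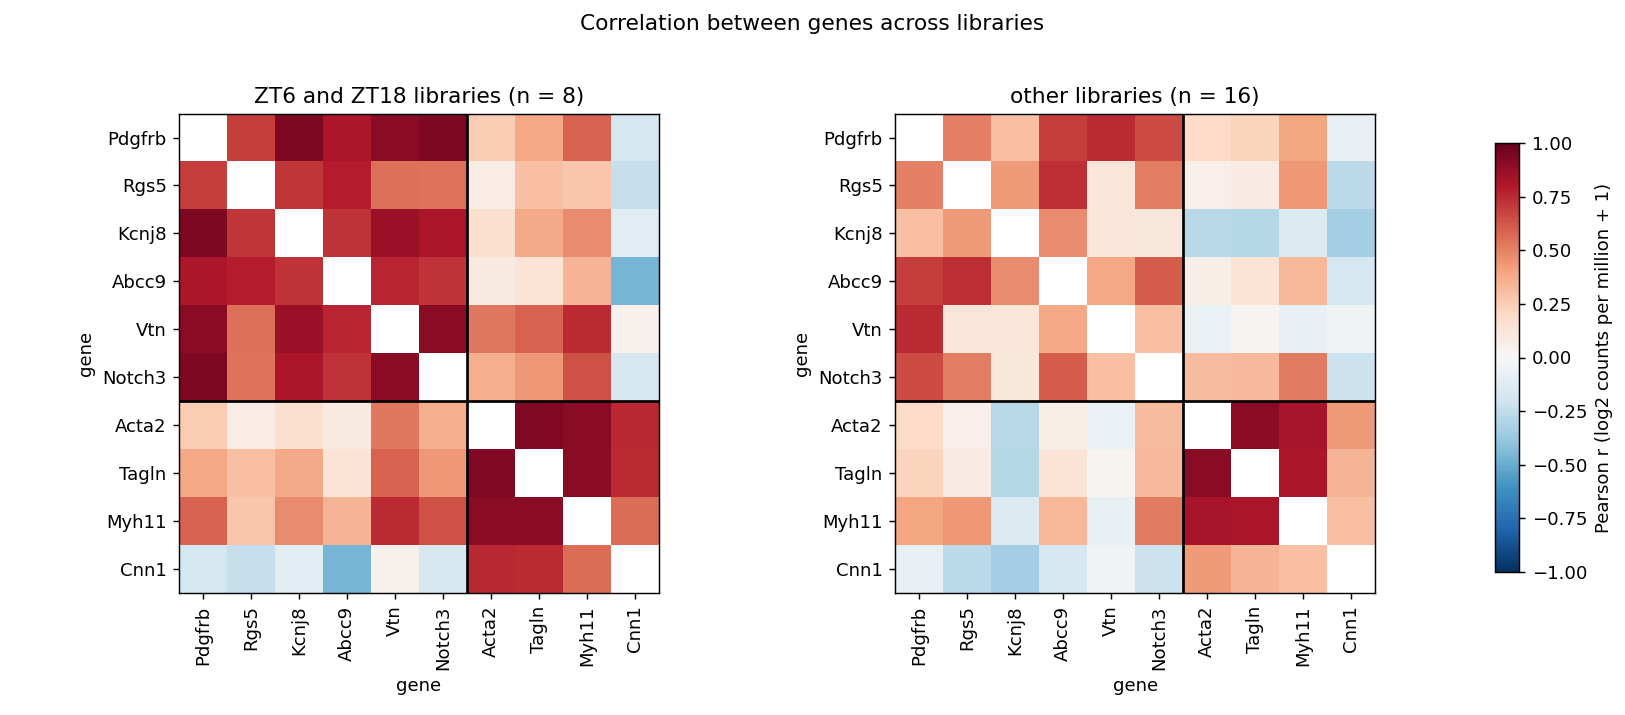
Pearson r between each pair of the 10 genes (both axes) on log2(CPM + 1), red for positive and blue for negative, in the 8 ZT6 and ZT18 libraries on the left and the other 16 on the right. The blocks within the pericyte and within the smooth muscle genes are red in both, and the block between them has a median r of 0.292 and 0.0396.

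The genes most like each group were found among 12254 genes with a mean of 20 or more reads, by their mean Pearson r with the group over 24 libraries after the means of the 8 and of the 16 were removed. For the pericyte genes these were Atp13a5 (mean r 0.678), Cacna1c, Anpep (0.611), Cald1 (0.59) and Naalad2 (0.589). Atp13a5 and Anpep are on the list of other pericyte genes, Cald1 is on the list of other smooth muscle genes, and Cacna1c encodes the pore of a voltage-gated calcium channel. For the smooth muscle genes they were Mylk (0.745), Tpm2 (0.714), Flna (0.676), Eln (0.661) and Fbln5 (0.633). Mylk, the myosin light chain kinase, and Tpm2 are on the list of other smooth muscle genes, Flna encodes filamin A, Eln encodes elastin and Fbln5 a protein of elastic fibres. Eln and Fbln5 were not called between the 8 and the 16 libraries, with values of 0.23 (adjusted p = 0.584) and -0.03 (adjusted p = 0.97).

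Counts of Tagln are uncertain in part, since 1241 of its 1988 exon bases are shared with the antisense gene Gm48529 and 108 with Pcsk7 on the opposite strand. Notch3 shares 488 of 8089 exon bases with antisense Gm17276, and Abcc9 158 of 8373 with antisense 5330439B14Rik. The libraries were strand-specific, and whether strand was used in counting is not given in the sources used here.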

How the data were processed

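RNA-seq was done on CD31-sorted brain endothelial cells of 24 mice, after removal of CD90-positive cells. Per the labels and methods, the authors aligned reads to GRCm38 with STAR 2.5.3a, merged lanes with SAMtools 1.3.1, and counted and normalised them on Ensembl genes with PORT. The deposited values are whole-number normalised read counts per gene, handled here as counts. The original depth is no longer in them. Every column of values was assigned to a sample, so 0 were unused.

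Genotype differences were tested in edgeR 4.0.16 (R 4.3.3, limma 3.58.1) by the quasi-likelihood test after TMM scaling, with time point as a factor. Differences between the ZT6 and ZT18 libraries and the other 16 were tested with genotype as a factor, and rhythm differences as the interaction with a cosine and sine of 24 h. Genes needed 5 reads in 6 libraries of a genotype. P-values were adjusted over all genes by Benjamini and Hochberg's method, with a threshold of 0.05. Intervals are 95%. Rhythms within a genotype were tested with meta2d (JTK_CYCLE and Lomb-Scargle combined by Fisher's method), rewritten in R. Correlations used Python 3.11.15, NumPy 2.4.6 and SciPy 1.17.1, with exact permutations for 8 libraries and 100000 random ones for 16. Tables were read with pandas 2.3.3 and plots drawn with matplotlib 3.10.9. Exon lengths and positions came from GENCODE M21, which held 53274 of the 53465 identifiers. The tests of genotype, of the 8 against the 16 libraries, of their interaction and of rhythm difference, and meta2d, were tried on simulated data. The simulated spread was the same for every gene and lay below that of the smooth muscle genes. The correlations, the outlier check and the alternative fits were not simulated.

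The genes named are the 10 members, of each other list those with an adjusted p under 0.05 (at most 5, smallest p first, otherwise 2 to 4 with the highest mean), and the 5 genes most like each group. Actb and Tagln3 were named after their values were seen. The members and lists were chosen with earlier results of these data known. Alternatives were no TMM, DESeq2 1.42.0, other filters, the replicate block, a contrast of group means, the i5 index and other covariates. Others were each set of libraries or genotype alone and each library left out. The 21 libraries of the unbroken number run and the 12 libraries of i5 index A were also fitted alone.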

Additional observations from a re-analysis of the deposited data

Results flagged for a closer look

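Cnn1, the calponin gene, had 25 reads in control ZT22 replicate 1, while the next of the 8 control libraries outside ZT6 and ZT18 had 3. Among the 8 mutant libraries outside ZT6 and ZT18 it had 24 reads in mutant ZT22 replicate 2, and the next had 9. In both groups the gap to the nearest library was above Dixon's 95% critical value for its share of the group's range. In all, 40 groups of values were looked at and 2 stood out, and chance gives about 1 in 20. Acta2 was also the highest of its group in these libraries, with 721 and 716 reads.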

How the results depend on the processing

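Over single-library omissions the count of the 10 genes called between the ZT6 and ZT18 libraries and the other 16 ran from 6 (without mutant ZT18 replicate 2, which took the calls of Vtn, Notch3 and Cnn1) to 10 (without control ZT6 replicate 1), against 9. It was 3 in the 12 controls alone and 4 scaled to the endothelial genes, where Vtn turned to -0.030. Over all genes, 2595 differed between these sets, 1624 with 10 reads required in every library, 1064 in controls, 1535 in mutants, 4877 scaled to the endothelial genes, 1003 with the i5 index as a covariate and 744 within index A, where 1 and 4 of the 10 genes were called. Tagln and Cnn1 could not be tested with 10 reads in every library, since both have libraries at 0. The count of genes differing between genotypes was 42, against 99 by DESeq2, 141 with no filter, 7 with the i5 index as a covariate and 3 in the 8 ZT6 and ZT18 libraries fitted alone. It was 9 in the 21 libraries of the unbroken number run, where Rgs5 had 0.038, Tagln -0.18 and Cnn1 -0.49. Without single libraries it ran from 25 (without mutant ZT6 replicate 2) to 68 (without mutant ZT6 replicate 1). In these fits 0 of the 10 genes were called between genotypes, with no adjusted p for Cnn1 from DESeq2. A cosine fit in edgeR of the mutants at ZT2, ZT10, ZT14 and ZT22 gave 1 of the 10 an unadjusted p under 0.05 (Kcnj8), against 0. The share over all genes was not taken for that fit, so this count is not read as a rhythm. The causes were not tested.

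The following genotype differences changed sign, and 0 of them were called. In the 16 other libraries fitted alone, Pdgfrb had -0.14, Kcnj8 -0.15 and Abcc9 -0.074. In the 8 alone, Rgs5 had 0.14, Vtn 0.23, Tagln -0.044, Myh11 0.014 and Cnn1 -1.26. With no TMM scaling Rgs5 had 0.0031 and Myh11 0.0035. With the i5 index Vtn had 0.030, Acta2 0.068, Myh11 0.15 and Cnn1 -0.17. With cosine, sine and set as covariates Tagln had -0.0015. Without single libraries, Pdgfrb ran from -0.043 to 0.083, Rgs5 from -0.061 to 0.032, Abcc9 from -0.038 to 0.10, Acta2 from -0.28 to 0.0092, Tagln from -0.083 to 0.23, Myh11 from -0.11 to 0.11 and Cnn1 from -0.24 to 0.61.

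Mice with the same replicate number did not deviate together, with correlations of -0.0052 to 0.0344 across the 6 time points, so the numbers pair nothing. With the replicate block, 45 genes differed between genotypes and 2618 between the sets of libraries, 0 and 9 of the 10 genes were called, and Cnn1 had a genotype difference of -0.025.

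With 2 mice per genotype and time, the intervals of the smooth muscle genes allow larger genotype differences than those of the pericyte genes, and Cnn1 is limited by its low reads.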
